A study of Mus musculus with 16 samples.

Results

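Cytosines within the first 100 nucleotides (nt) of mouse mRNAs were examined in RNA bisulfite sequencing libraries of embryonic stem cells. Bisulfite turns unmethylated cytosine into uracil and leaves 5-methylcytosine unchanged, so the share of reads that still carry a cytosine, here called non-conversion, is an upper bound on methylation that also holds incomplete conversion. A cytosine was taken when its position, counted from 1 at the 5′ end of the RefSeq reference, was 100 or less and its coverage was 10 reads or more in all 6 mRNA libraries. This gave 32311 cytosines of 2231 references (2213 genes), out of 179278 cytosines of 8720 references listed there in any library and 4938637 cytosines listed at any position. They were set against 410144 later cytosines of the same references, which 2162 of the references had.

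The libraries are 3 of Dnmt2-/- cells (KO) and 3 of wild-type cells (WT). Both genotypes share the J1 embryonic stem cell background and growth on primary fibroblast feeders, which were taken out by letting them attach. RNA longer than 200 nt was depleted of rRNA and fragmented before bisulfite treatment. Separate cultures are not named for the replicates, nor is the number of knockout lines, so p-values measure the spread between these libraries, which may be technical. The series holds 16 libraries in all, and those of other RNA fractions were not analysed here.

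Dnmt2, encoded by Trdmt1, is an RNA methyltransferase with the fold of a DNA methyltransferase, known for methylating a cytosine in the anticodon loop of a few tRNAs. Cytosine methylation of mRNA is mostly assigned to enzymes of the NSUN family. The start of an mRNA carries the cap and the 5′ untranslated region, where the small ribosomal subunit is loaded and scans towards the start codon. This region is often rich in G and C, and in the terminal oligopyrimidine (TOP) class, which includes ribosomal protein mRNAs, it opens with a run of pyrimidines.

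Coverage summed over all listed cytosines was between 37786723 (WT replicate 3) and 143488903 (WT replicate 2) in the 6 libraries. Over the 32311 cytosines of the first 100 nt the sums were 1842666 to 5644519. In such sums a read counts once at each cytosine it covers, so they are not numbers of separate reads. Trdmt1 was not among the 2231 references, because its 23 listed cytosines of the first 100 nt fell under 10 reads in some libraries. Reads there were not lost in the knockout: the mean coverage was 11.2, 4.09 and 8.48 reads in KO replicates 1 to 3 and 7.13, 14.7 and 0.913 reads in WT replicates 1 to 3. Past position 200 none of 154 Trdmt1 cytosines was listed in any KO library, whereas 95, 127 and 48 were listed in the WT libraries, so the start of this mRNA does not check the genotype and its later part does. Of 7 stem cell markers 6 or 7 were listed in each library, Esrrb being absent from 4 libraries, with summed mean coverage of 2452 to 3046 reads in KO and 676 to 3010 reads in WT. Of 8 fibroblast markers 5 or 6 were listed, with sums of 38.0 to 53.1 reads in KO and 29.2 to 79.8 reads in WT, mostly from Fn1; Postn and Lum were at 0 throughout. Fewer fibroblasts and less RNA per fibroblast cannot be told apart in such bulk samples.

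To show what the outermost bases look like, the first 20 bases of 6 references are given. They have the highest summed coverage at positions 1 to 20 among references whose cytosine pattern could be placed at the annotated gene start. The sequences are from RefSeq on GRCm38.p6, and capitals mark the cytosines with 10 reads or more in all 6 libraries.
Atp5b: gtCtCCaCCCggattCCgCC
Rps12: accgccggccttttCCCCtg
Rpl12: gtcttttCggCtttCggCtC
Tuba1a: cctcctCCtCgCCtCCgCCa
H2ac13: CagCtgagttatgtCtggaC
Psmb5: aaaCatggCgCtggCtagCg
The Atp5b stretch lies at chr10:128083307-128083326 on the plus strand and that of Rpl12 at chr2:32961712-32961731 on the plus strand. Those of Rps12 (chr10:23787190-23787209) and Tuba1a (chr15:98953482-98953501) are on the minus strand, H2ac13 (chr13:21716412-21716431) is on the plus strand and Psmb5 (chr14:54617976-54617995) on the minus strand.

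Non-conversion of these capitals was low in Atp5b, which encodes the beta subunit of ATP synthase. Its 10 cytosines pooled to 1.16, 1.02 and 0.856% in the KO libraries and 0.708, 0.935 and 0.989% in the WT libraries. Their summed coverage was 1473 to 5023. The 4 cytosines of Rps12, a protein of the small ribosomal subunit, pooled to 1.11, 0.465 and 0.556% in KO and 0.973, 0.552 and 0.955% in WT. Rpl12, of the large subunit, pooled to 0.785 ± 0.291% in KO and 0.920 ± 0.259% in WT (SD, n = 3 each), and the alpha-tubulin Tuba1a to 0.962 ± 0.329% in KO and 0.643 ± 0.404% in WT. The histone H2ac13 stood higher at 1.31 ± 0.589% in KO and 1.67 ± 0.372% in WT, as did the proteasome subunit Psmb5 at 1.36 ± 0.621% in KO and 1.27 ± 0.377% in WT. The genotypes overlapped in all 6 stretches.

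Pooled over all its cytosines, the first 100 nt had slightly lower non-conversion than later positions. It was 1.72, 1.71 and 1.43% in KO replicates 1 to 3 and 1.56, 1.42 and 1.58% in WT replicates 1 to 3. Later positions of the same references had 1.86, 1.85 and 1.48% in KO and 1.67, 1.496 and 1.59% in WT. The first 100 nt were thus lower within each of the 6 libraries, with a difference of -0.0891 ± 0.0505 percentage points (SD, n = 6), and an exact sign-flip permutation test over libraries gave p = 0.03125, two-sided, the smallest that 6 libraries can give. The difference is smaller than the SD between KO libraries and about as large as that between WT libraries. It also rests on deeply covered cytosines: in classes under 50 reads 1 or 2 of 6 libraries were lower, and in classes of 50 reads or more 5 or 6 were. With later cytosines weighted to the same coverage classes the difference was -0.0879 points (6 of 6 libraries lower, exact p = 0.03125). With every cytosine weighted equally the levels were 1.67 and 1.68% (4 of 6 libraries lower, exact p = 0.344), and with every reference weighted equally 1.70 and 1.69% (3 of 6 lower, exact p = 0.438).

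The lower level was placed at the 5′ end of the window. Bins of 10 nt rose in order along the first 40 nt and levelled off by about 80 nt. Positions 1 to 10, with 236 cytosines of 131 references, had 0.946, 0.985 and 0.756% in KO and 0.774, 0.751 and 0.939% in WT. Positions 11 to 20, with 950 cytosines of 355 references, had 1.16 ± 0.119% in KO and 1.12 ± 0.087% in WT. The level was 1.4 ± 0.118% in KO and 1.29 ± 0.0503% in WT at 21 to 30, and 1.51 ± 0.0998% in KO and 1.44 ± 0.0786% in WT at 31 to 40. At 91 to 100 it had come to 1.70 ± 0.194% in KO and 1.58 ± 0.0774% in WT (SD, n = 3 each). Against later positions, the difference was -0.800 ± 0.107 points in the first bin and -0.518 ± 0.0949 points in the second (SD, n = 6). Those 2 bins, the bins at 21 to 30 and 31 to 40, and the bins at 51 to 60 and 61 to 70 were lower in 6 of 6 libraries, each with an exact p of 0.03125. After Benjamini-Hochberg adjustment over the 10 bins that p became 0.0521, so no bin passed 0.05. As 0.03125 is the smallest exact p of 6 libraries, a bin cannot pass unless most bins reach it, however large its difference. In the last 3 bins, from 71 to 100, 4 to 5 of 6 libraries were lower and the mean difference was between -0.0274 and -0.0128 points.

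**Figure D1:**
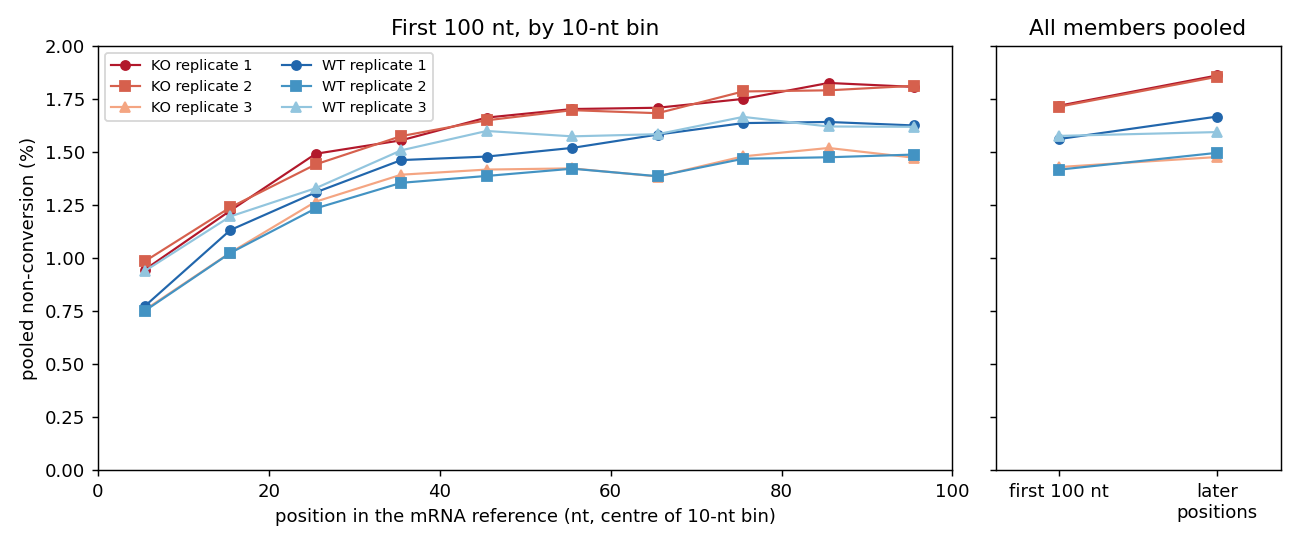
Pooled non-conversion (%, y axis from 0) of cytosines in the first 100 nt against position in the mRNA reference (10-nt bins, left) and of the whole window beside later positions of the same references (right); each line is 1 library, red for KO and blue for WT. All 6 lines start between 0.751 and 0.985% at positions 1 to 10 and end between 1.47 and 1.81% at 91 to 100, while on the right each line is a little higher at later positions.

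The gradient was also seen along a fixed set of references. The 360 references with a covered cytosine in their first 20 nt were pooled by position from the start to beyond position 1000. Their non-conversion averaged 0.859% at 1 to 10, 1.14% at 11 to 20, 1.42% at 21 to 40, 1.54% at 41 to 60, 1.63% at 61 to 80 and 1.67% at 81 to 100 over the 6 libraries. It was 1.69% from there to 200, 1.65% from there to 500 and 1.61% past 1000. Not all of the 360 had a covered cytosine in each range: 131 did at 1 to 10 and 355 at 11 to 20. The ranges 1 to 10 and 11 to 20 hold the same cytosines as the bins above. Pools weight references by reads and are not comparisons within single references. Mean coverage also grew along these references, with 60.4 reads per cytosine at 1 to 10, 279 at 81 to 100 and 333 from there to 200. The part of coverage in the gradient was not tested. Within classes of coverage the values were as follows: in the class of 30 to 50 reads the first 20 nt averaged 1.18% and later positions 1.67%, and in that of 200 to 500 reads 1.044% and 1.68%. In the 7 classes of 15 reads or more, the first 20 nt were lower in 6 of 6 libraries. Later positions kept between 1.52 and 1.68% in all 8 classes.

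**Figure D2:**
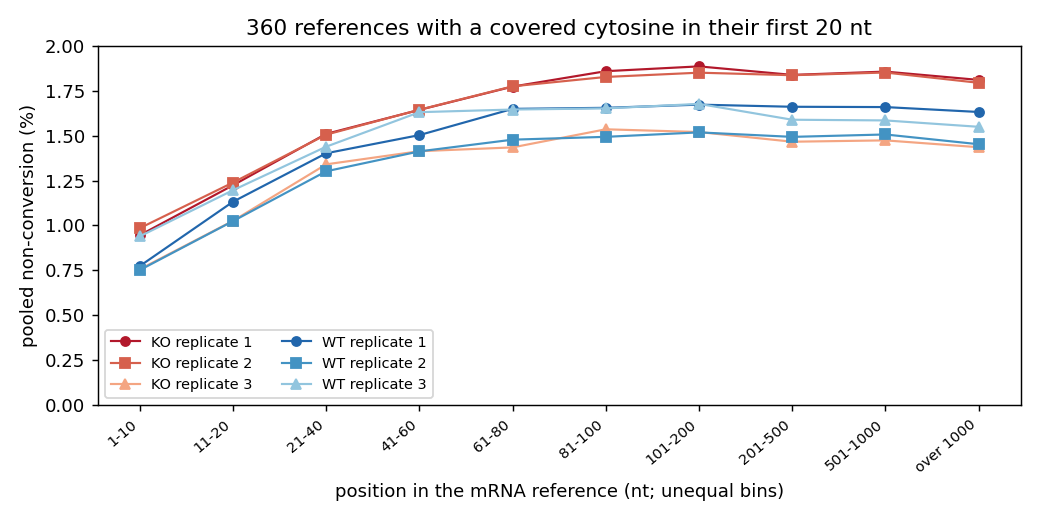
Pooled non-conversion (%, y axis from 0) along 360 references that have a covered cytosine in their first 20 nt, by position (x axis, bins of unequal width); each line is 1 library, red for KO and blue for WT. Each line climbs over the first 100 nt or so and then runs nearly flat, the 6-library mean being 0.859% at 1 to 10 and 1.61% past 1000.

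At the outermost bases of the references the counts were small. At position 1 only 3 cytosines qualified, and 0 of 396 reads over the 6 libraries were non-converted, which allows a share of up to 0.758%. At position 2, 3 of 1467 reads were non-converted, or 0.204%, and at position 5, 42 of 5966 reads, or 0.704%. At position 10 the share was 1.06% over 53 cytosines. No molecular identifiers are named, so reads may repeat a molecule, and limits of this kind cover counting error only.

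The sequence around the cytosines differed between the windows. Members had 6.32 other listed cytosines within 10 nt on average, against 5.05 for later cytosines, and 50.2% against 46.9% had a listed cytosine directly beside them. Non-conversion varied with this density: cytosines with 2 such neighbours had 1.74% in the first 100 nt and 1.84% later, and those with 9 had 1.46% and 1.49%. Beyond 9 neighbours it did not keep falling, with 1.53% in the first 100 nt and 1.56% later at 12. When later cytosines were weighted to the density of the first 100 nt, the difference shrank to -0.0408 points and was lower in 5 of 6 libraries (exact p = 0.0625). Cytosines without an adjacent cytosine had 1.61 ± 0.143% in the first 100 nt and 1.72 ± 0.190% later (SD, n = 6), and all 6 libraries were lower.

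The base before the cytosine went with the level as well. It could be read for 4487 cytosines, in 1104 references whose pattern of listed cytosines matched 1 place in a RefSeq start record exactly over at least 8 cytosines; 1825 references had a record by symbol. Cytosines after a T had 1.16 ± 0.0581% in KO and 1.17 ± 0.123% in WT, and those after a G had 1.62 ± 0.155% in KO and 1.51 ± 0.0747% in WT (SD, n = 3 each). The level after T was below that after G in 6 of 6 libraries. The bases differed less on the 3′ side, with 1.498% before G, 1.42% before C, 1.38% before T and 1.37% before A. The gradient was present after T, with 0.904% at positions 1 to 20, 1.12% at 21 to 40 and 1.27% at 41 to 100, and after G, with 1.22, 1.52 and 1.68% in the same order. These values are descriptions and were not tested. The records hold 50 bases from the gene start, where 966 of the 1104 references were placed. In those no cytosine past position 50 was read, so their range of 41 to 100 ends there.

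Most cytosines of the first 100 nt lay near background. The median of the mean non-conversion over 6 libraries was 1.49%, against 1.53% at later positions, and 1649 cytosines (5.10%, against 3.87% later) had no non-converted read in any library. A mean of 5% or more was reached by 461 of 32311, or 1.43%, against 1.01% of later cytosines. A mean of 10% or more was reached by 20 (0.0619%, against 0.0690% later) and of 20% or more by 4. Zeros and high means are commoner at low coverage, and the median mean coverage was 44.7 reads in the window and 52.2 later. The part of coverage in these shares was not tested. The 461 lay in 325 references, 247 of which had 1 of them, while Ppp1r14b had 10 and Nudc and Taf10 had 7 each.

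The most strongly non-converted cytosine, 1 per reference, was position 48 of Eif3i, a subunit of translation initiation factor eIF3. It had 43.2, 44.7 and 36.8% in KO and 50, 42.1 and 61.9% in WT, at coverage of 21 to 57 reads. All 6 libraries were far above the later cytosines of this mRNA, which pooled to 1.71%, and the genotypes overlapped. The 5 covered cytosines within 10 nt of it had a median of 2.17%.

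Ppia, which encodes cyclophilin A, a prolyl isomerase, had a single raised site. Its position 30 had 18.9, 14.6 and 13.5% in KO and 15.3, 15.2 and 11.3% in WT, at 53 to 125 reads. The genotypes overlapped, and the 7 covered cytosines within 10 nt had between 0.674 and 1.91%. The 21 bases around this site, with the cytosine in capitals, were on chr11:6415889-6415909 (plus strand, GRCm38.p6), beside the 2 stretches of Ppp1r14b described next (chr19:6975058-6975086 and chr19:6975084-6975097, plus strand), in which capitals mark cytosines of 5% or more.
Ppia position 20 to 40: cttttcgccgCttgctgcagc
Ppp1r14b position 11 to 39: ccaggccaagCCCgggggCtccgcatgct
Ppp1r14b position 37 to 50: gctgcagctgCCCC

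Ppp1r14b, an inhibitor of protein phosphatase 1, carried 10 of the 461 cytosines, at positions 21 to 23, 29, 47 to 51 and 55. Position 23 had 29.2, 23.1 and 64.3% in KO and 26.7, 22.9 and 60.0% in WT, at 15 to 35 reads. Positions 21 and 22 averaged 38.4 ± 10.1 and 38.8 ± 20.4% in KO and 26.3 ± 35.1 and 35.1 ± 25.6% in WT (SD, n = 3 each). Replicate 3 of both genotypes was the highest at positions 21 to 23 and 29. At position 49, in the second stretch, the values were 16.3, 22.4 and 19.01% in KO and 9.52, 1.94 and 14.8% in WT, and the genotypes did not overlap. At position 51 they were 16.3, 27.9 and 19.3% in KO and 12.5, 4.27 and 18.5% in WT and overlapped. Later cytosines of this mRNA pooled to 2.43%.

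Of the other 12 cytosines that had the highest means in their references, some were raised in each of the 6 libraries. Position 79 of H3f3a, which encodes the replacement histone H3.3, had 10.8, 8.62 and 16.6% in KO and 14.04, 10.4 and 18.8% in WT, at 154 to 511 reads. Position 72 of Uap1l1, related to UDP-N-acetylglucosamine pyrophosphorylase, had 17.1, 27.3 and 10.7% in KO and 11.4, 11.8 and 8.70% in WT. Both were above 8% in 6 of 6 libraries, and their genotypes overlapped. At H3f3a replicate 3 was the highest library of each genotype.

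Others were highest in WT replicate 3. Position 91 of Bax, a pro-apoptotic member of the Bcl-2 family, had 6.38, 11.8 and 24.5% in KO and 2.22, 4.59 and 27.8% in WT. Position 90 of Cyb5b, an outer mitochondrial membrane cytochrome b5, had 9.09, 14.3 and 17.9% in KO and 6.45, 14.04 and 42.1% in WT. Position 70 of Taf10, a subunit of the general transcription factor TFIID, had 4.70, 5.31 and 7.96% in KO and 6.59, 3.96 and 31.3% in WT, and its mean of 9.98% became 5.71% without WT replicate 3. Replicate 3 was the highest library of its genotype at these 3 sites, and the WT library of that number had the lowest summed coverage of all 6. The part of depth was not tested. Position 77 of the transcription factor Yy1 had 11.1, 7.14 and 13.0% in KO and 0, 5.00 and 25.0% in WT, and position 78 of Nudc, a dynein-associated protein, had 12.9, 10.7 and 8.22% in KO and 0, 2.44 and 22.5% in WT. KO replicate 3 was the highest KO library at Yy1 and the lowest at Nudc. The zeros of WT replicate 1 allow up to 18.8% at Yy1 and 13.6% at Nudc.

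The remaining 5 sites had few reads or wide spreads. Csnk1g2 position 69, in a casein kinase mRNA, ranged from 0 to 31.6% in KO and from 5.88 to 25.0% in WT. Agrn position 58, in the mRNA of the synaptic organiser agrin, ranged from 0 to 29.4% in KO and from 0 to 14.3% in WT; its mean of 10.4% became 6.57% without KO replicate 1. Fbl position 94, in the mRNA of the nucleolar methyltransferase fibrillarin, ranged from 4.17 to 15.7% in KO and from 0 to 17.5% in WT. Numbl position 81 ranged from 0 to 25.0% in KO and from 0 to 16.7% in WT, and its mean of 9.37% became 6.24% without KO replicate 2. Cdk2ap1 position 46 ranged from 8.33 to 16.7% in KO and from 0 to 10.5% in WT, at 10 to 26 reads. The genotypes overlapped at each of the 5.

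**Figure D3:**
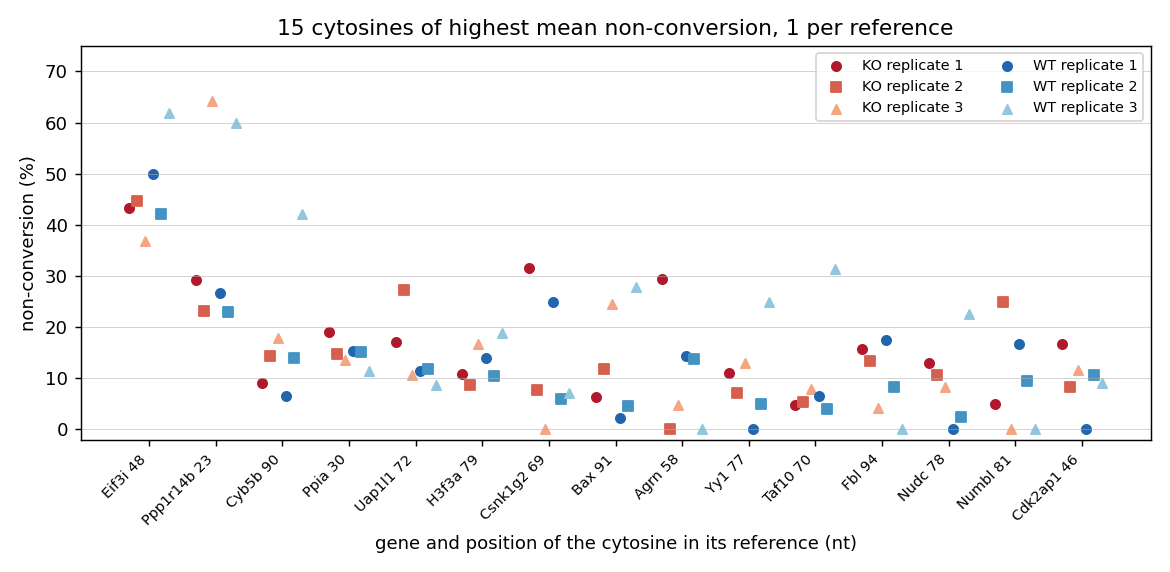
Non-conversion (%, y axis) in each library of the 15 cytosines of the first 100 nt with the highest mean over 6 libraries, 1 per reference, named by gene and position; red symbols are KO and blue symbols WT, and triangles mark replicate 3. Eif3i position 48 lies between 36.8 and 61.9% in all 6 libraries, while triangles stand above the other symbols in both genotypes at Ppp1r14b 23, Cyb5b 90, H3f3a 79, Bax 91, Yy1 77 and Taf10 70.

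A cytosine was called non-converted in a genotype when a binomial test against each library's background, combined over 3 libraries by Fisher's method, had an adjusted p under 0.05 and all 3 levels were 10% or more. Over all positions 0.0311% of 741725 cytosines were called in KO and 0.0213% in WT. In the first 100 nt 14 of 32311 were called in KO (0.0433%) and 4 in WT (0.0124%), with 3 in both: Eif3i position 48, Ppp1r14b position 23 and Ppia position 30. Of the 14 called in KO, 10 were the Ppp1r14b cytosines, and the others were Uap1l1 position 72, Yy1 position 86 and the Eif3i and Ppia sites just named. H3f3a position 79 was called in WT alone, with 8.62% in KO replicate 2 as the value under 10%. At later positions of the same references 0.0322% were called in KO and 0.0234% in WT. The difference in these counts between genotypes was not tested as a count.

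References differed in where their first 100 nt stood. Of 1795 references with at least 5 cytosines in the window and at least 10 non-converted reads, the first 100 nt were called higher than later positions in 131 (7.3%) and lower in 176 (9.81%), by edgeR's quasi-likelihood test with Benjamini-Hochberg adjustment, and 485 had an unadjusted p under 0.05. The median difference over the 1795 was -0.0400 points, and 974 of them (54.3%) were lower. The median difference was 0.791 points in the 131 and -0.466 points in the 176. DESeq2 on the same counts called far fewer, 17 higher and 10 lower, all of them among the edgeR calls. Coverage moved with the direction: the median mean coverage of the window was 50.8 reads in references called higher, 119 in those called lower and 42.0 in all tested. Its part in the result was not tested. By DESeq2, Yy1, Nudc, Bax, Psmd12, Marcksl1 and H2ac23, of the largest edgeR calls described next, also passed.

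**Figure D4:**
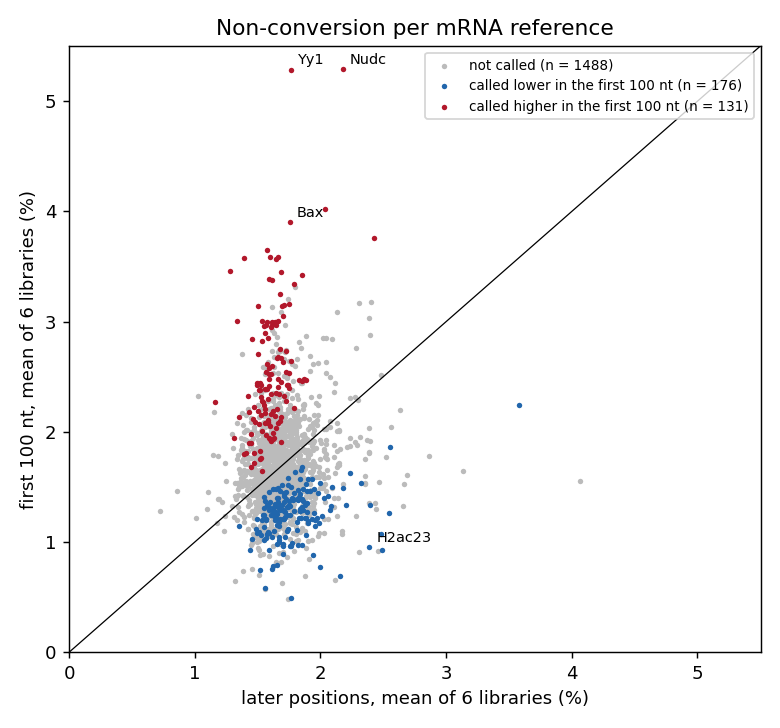
Non-conversion of the first 100 nt (y axis, %) against that of later positions (x axis, %) for 1795 mRNA references, each a mean of 6 libraries; red and blue points were called higher and lower in the first 100 nt by edgeR, grey points were not called, and the line marks equality. Points called higher reach 5.29% at Nudc and Yy1, and H2ac23 lies at 0.954% against 2.39% later. The first 100 nt spread more widely than later positions, but pool fewer cytosines, 32311 against 410144 over all references. The part of this in the spread was not tested.

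The largest higher call was Yy1. Its 11 cytosines, at positions 64 to 86, pooled to 4.76, 4.41 and 2.53% in KO and 2.98, 3.91 and 13.1% in WT, against 1.77% for later positions over the 6 libraries (log2 odds ratio 1.54, edgeR adjusted p = 3.4e-07). Without WT replicate 3, the highest library, the log2 odds ratio was 1.17 and its edgeR adjusted p 0.00015. Nudc pooled to 4.35, 7.62 and 2.92% in KO and 3.74, 2.32 and 10.8% in WT, against 2.18% later, and its log2 odds ratio of 1.21 (edgeR adjusted p = 3.0e-08) became 0.78 without WT replicate 3. Bax had 2.79, 4.74 and 5.92% in KO and 2.19, 1.66 and 6.12% in WT, against 1.76% later (edgeR adjusted p = 1.6e-09). In these 3 mRNAs the window was above later positions in 6 of 6 libraries. Without cytosines of 10% or more the Bax call was lost (log2 odds ratio 0.42, edgeR adjusted p = 0.079), and so was that of Cyb5b (0.39, edgeR adjusted p = 0.378).

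The other 7 of the 10 largest higher calls follow. Psmg1, a chaperone of proteasome assembly, had 3.74 ± 0.848% in KO and 3.57 ± 0.942% in WT, and Psmd12, a subunit of the regulatory particle, had 4.24 ± 1.39% in KO and 2.94 ± 0.907% in WT (SD, n = 3 each). Later positions of these mRNAs had 1.57 and 1.60%. Cdk8, the kinase of the Mediator module, had 3.46 ± 2.30% in KO and 3.70 ± 1.68% in WT, and its edgeR adjusted p of 0.0075 became 0.0522 without KO replicate 1. Crebrf, a regulator of CREB3, had 3.63 ± 1.39% in KO and 3.28 ± 1.19% in WT, and its log2 odds ratio of 1.49 became 1.02 without KO replicate 3. Marcksl1, a membrane-bound actin regulator, had 4.30 ± 1.55% in KO and 3.75 ± 0.435% in WT, and Cyb5b and the zinc finger gene Zfp292 had 3.69 and 3.89% in KO and 3.49 and 3.24% in WT. The window was above later positions in 6 of 6 libraries in each of these 7 mRNAs. DESeq2 did not call 5 of them, with adjusted p of 0.157 for Cdk8, 0.135 for Crebrf, 0.0689 for Psmg1 and Cyb5b and 0.0752 for Zfp292.

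The largest lower calls were 2 chromatin genes and 3 histones. Tdg, a thymine DNA glycosylase that acts in active DNA demethylation, had 1.98, 0.585 and 0.839% in KO and 0.935, 1.22 and 0% in WT, against 2.49% for later positions (log2 odds ratio -1.21, edgeR adjusted p = 0.0068). The zero of WT replicate 3 allows up to 2.14% if counts at its cytosines are independent. They can come from the same reads, so the limit may be wider. Sap30, of the Sin3 histone deacetylase complex, had 0.666 ± 0.676% in KO and 0.711 ± 0.626% in WT, against 2.16% later (edgeR adjusted p = 0.018). Its edgeR adjusted p was 0.0563 without KO replicate 2 and 0.0568 without WT replicate 3. H2ac23, a replication-dependent histone H2A, had 1.26, 0.938 and 0.748% in KO and 1.10, 0.981 and 0.697% in WT, against 2.39% later (log2 odds ratio -1.29, edgeR adjusted p = 2.6e-13). H1f10, a linker histone, had 0.962 ± 0.512% in KO and 1.19 ± 0.477% in WT, against 2.49% later. H2ac20 had 2.58 ± 0.535% in KO and 1.91 ± 0.244% in WT, against 3.58% later, but without cytosines of 10% or more its log2 odds ratio of -0.70 turned to 0.13 (edgeR adjusted p = 0.723). All 5 were lower in 6 of 6 libraries. DESeq2 did not call 4 of them, with adjusted p of 0.365 for Tdg and Sap30, 0.333 for H2ac20 and 0.0581 for H1f10. Reads of histone genes may be shared with near-identical copies, which makes their values uncertain.

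Deeply covered mRNAs gave small differences, and of those described here DESeq2 called H1f1 alone (adjusted p = 0.0449). The reference with the highest summed coverage in the window was Rps12. The 31 cytosines of Rps12 had 1.80, 1.72 and 1.53% in KO and 1.62, 1.58 and 1.62% in WT, against 1.54% for later positions. Its call as higher (edgeR adjusted p = 0.0038) was lost without WT replicate 1 (0.0549) or WT replicate 2 (0.152). Rps20 was lower in 6 of 6, with 1.41 ± 0.0722% in KO and 1.39 ± 0.120% in WT against 1.65% later. Rplp1, a stalk protein of the large subunit, was lower, with a difference of -0.142 ± 0.0597 points (SD, n = 6).

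The prothymosin mRNA Ptma was lower, with 1.53 ± 0.121% in KO and 1.45 ± 0.125% in WT against 1.66% for later positions. The beta-actin mRNA Actb was lower, with 1.197 ± 0.0615% in KO and 1.23 ± 0.194% in WT against 1.498%, and so was Rack1, a scaffold protein of the small ribosomal subunit, with 1.36 ± 0.164% in KO and 1.31 ± 0.0796% in WT against 1.57%. Hspa8, a constitutive Hsp70 chaperone, had 1.52 ± 0.195% in KO and 1.43 ± 0.114% in WT against 1.496% and did not pass (edgeR adjusted p = 0.699). The linker histones H1f3 and H1f1 were lower, with differences of -0.423 ± 0.140 and -0.440 ± 0.118 points (SD, n = 6).

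Cytosolic ribosomal proteins, the core of the TOP class, had a negative difference in 53 of 71 references tested. By edgeR 35 were called lower and 7 higher; among all 1795 tested 9.81% were called lower and 7.3% higher. Their median difference was -0.172 points, against -0.0400 over all tested. The count rests on edgeR: DESeq2 called 10 references lower among all 1795, and its adjusted p was 0.464 for Rps20, 0.818 for Rplp1 and 0.875 for Rps12. Pooled over 1557 cytosines they had 1.66, 1.64 and 1.37% in KO and 1.51, 1.38 and 1.53% in WT, against 1.66 ± 0.166% for later positions (SD, n = 6). Those called higher included Rpl13a, Rpl7a, Rps12 and Rps2. Of the list's cytosines 156 lie in the first 20 nt. Of 34 ribosomal protein references whose start could be read, 3 (8.82%) began with a C in a run of 5 or more pyrimidines. Most of them thus did not open with the run that defines the TOP class, and position 1 of a reference need not be the capped base. These mRNAs are among the most covered, and the part of coverage in the count was not tested; near-identical copies and pseudogenes may share their reads.

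Other TOP mRNAs had 4 of 11 called lower and 0 higher, against 9.81% lower and 7.3% higher among all tested: Btf3, of the nascent polypeptide-associated complex, the elongation factor Eef2, the initiation factor subunit Eif3e, and Rack1. Eef2 had 1.26% in KO and 1.25% in WT, against 1.63% for later positions, a difference of -0.380 ± 0.0969 points (SD, n = 6, edgeR adjusted p = 3.1e-14; DESeq2 adjusted p = 0.0623). Eef1a1, elongation factor 1 alpha, had 1.58% in KO and 1.33% in WT against 1.56% (edgeR adjusted p = 0.073; 0.031 without KO replicate 3). Impdh2, of guanine nucleotide synthesis, had 1.75% in KO and 1.501% in WT against 1.58% (edgeR adjusted p = 0.868). The list's median difference was -0.0799 points.

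Replication-dependent histones split both ways, with 13 of 34 called lower and 8 higher, against 9.81% and 7.3% among all tested, and a median difference of -0.0871 points. All 5 linker histones called, H1f1 to H1f5, were lower; H1f2 had 1.39% in KO and 1.19% in WT against 2.08% for later positions (edgeR adjusted p = 5.7e-26). The 8 called higher were the core histones H2ac4, H2ac6, H2ac11, H2ac13, H2bc15, H4c3, H4c4 and H4c14. The other 8 called lower were core histones too: H2ac7, H2ac12, H2ac20, H2ac23, H2bc3, H2bc12, H2bc14 and H3c6. H2ac4 had 2.25% in KO and 2.08% in WT against 1.61% later (edgeR adjusted p = 2.1e-07; DESeq2 adjusted p = 0.0752).

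Pluripotency genes had 2 of 10 called lower, Dppa5a and Tdgf1, and 1 higher, Tfcp2l1, with a median difference of -0.0507 points. Among all tested 9.81% were called lower and 7.3% higher, so with 10 references these counts are no result about the list. Dppa5a, an RNA-binding protein of early embryonic cells, had 1.10% in KO and 0.946% in WT against 1.45% for later positions (edgeR adjusted p = 4.5e-16). Klf2, Pou5f1 and Zfp42 did not pass, with windows of 1.48, 1.68 and 1.77% against 1.63, 1.81 and 1.66% later. The window of Pou5f1, the Oct4 transcription factor, averaged 1.98 ± 0.0936% in KO and 1.37 ± 0.152% in WT (SD, n = 3 each). Between genotypes edgeR called 0 of 1827 windows, so this one was not called either. Of electron transport and ATP synthase genes, 4 of 50 were called lower (Atp5l, Cox8a, Ndufa9 and Ndufb4) and 2 higher (Cox6a1 and Sdha), with a median of -0.151 points. These counts are not above the 9.81% lower and 7.3% higher among all tested. Their most covered mRNAs, Atp5b, Ndufa4, Ndufb9 and Ndufb5, had 1.79, 1.49, 1.41 and 1.59% against 1.66, 1.67, 1.59 and 1.58% later and were not called. Atp5b passed without WT replicate 3 (edgeR adjusted p = 0.025). Of 3 glycolytic references tested, Eno1, an enolase, was higher, with 1.71% in KO and 1.90% in WT against 1.39% later (edgeR adjusted p = 0.00015; DESeq2 adjusted p = 0.333). Hk2 and Gpi1 had 1.60 and 1.71% against 1.67 and 1.67% later, and Pfkl, with 3 cytosines, was not tested.

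**Figure D5:**
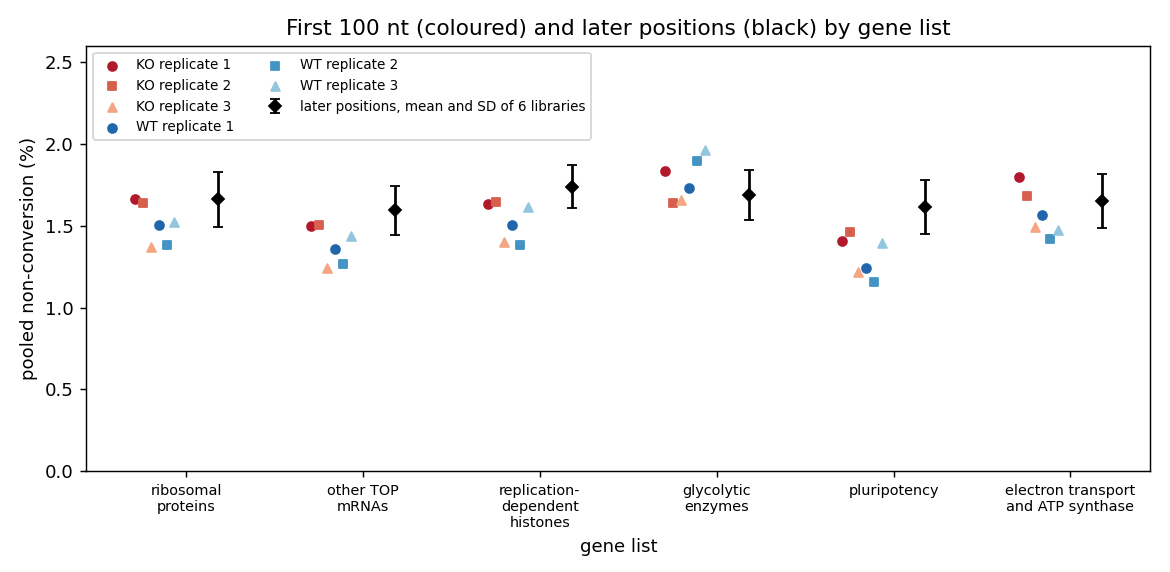
Pooled non-conversion (%, y axis from 0) of the first 100 nt in each library (coloured symbols, red for KO and blue for WT) and of later positions of the same references (black diamonds, mean and SD of 6 libraries) for 6 gene lists. In ribosomal protein, other TOP, histone and pluripotency mRNAs all 6 libraries were below their own later positions; in glycolytic mRNAs, with 4 references, 2 of 6 were. Pools weight references by reads, and in the pluripotency list the pooled difference was -0.301 points while the median over its references was -0.0507.

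The genotypes did not differ detectably in the window. The pooled level averaged 1.62 ± 0.166% in KO and 1.52 ± 0.0880% in WT (SD, n = 3 each), a difference of 0.102 points (exact permutation test, p = 0.3, two-sided; 3 against 3 cannot go below 0.1). KO replicates 1 and 2 were the highest of the 6 libraries and KO replicate 3 lay between the WT libraries. Later positions were also higher in KO on average, with 1.73 ± 0.220% in KO and 1.59 ± 0.0857% in WT, and relative to later positions the window differed by -0.110 ± 0.0547 points in KO and -0.0679 ± 0.0451 points in WT (exact p = 0.3). In each of the 10 bins the KO mean was the higher one, by 0.0453 to 0.133 points, and the smallest exact p was 0.3 (adjusted p = 0.556).

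Per cytosine, edgeR called 0 (0%) of 8193 cytosines of any position with a mean of 5% or more, and 0 of the 461 in the first 100 nt, of which 12 had an unadjusted p under 0.05. DESeq2 called 0 as well, with 6 of the 461 under 0.05 before adjustment. Fisher's exact test on reads summed over libraries, which ignores the spread between them, called 27 of the 8193, 26 of them higher in KO, and 4 in the first 100 nt, all in Ppp1r14b, at positions 47 and 49 to 51.

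The smallest edgeR p among these cytosines belonged to position 7 of Pcna, the sliding clamp of DNA replication. It had 6.25, 13.3 and 16% in KO and 0% in each WT library, at 15 to 35 reads. The WT zeros allow up to 10.7, 8.57 and 20%, and the edgeR adjusted p was 0.999. The start of this mRNA, on chr2:132253164-132253180 (minus strand, GRCm38.p6), is printed with that cytosine in capitals.
Pcna position 1 to 17: attagaCggttgcgggc
Position 47 of Ppp1r14b had 17.4, 15.3 and 12.9% in KO and 7.5, 2.01 and 6.12% in WT, and the genotypes did not overlap. Its log2 odds ratio was 1.86 (edgeR adjusted p = 0.999). Position 68 of Mettl16, an RNA adenosine methyltransferase, had 15.4, 14.3 and 3.13% in KO and 0% in each WT library. Position 64 of the chromatin reader Yeats4 had 12, 13.04 and 3.13% in KO and 4.35, 0 and 0% in WT. Position 49 of Ppp1r14b, given above, was the other of the 5, and all 5 had an edgeR adjusted p of 0.999.

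Per reference, 1827 windows were tested between genotypes and edgeR called 0 (0%), with 70 under an unadjusted p of 0.05, of which 61 were higher in KO. The log2 odds ratio was positive in 1193 of them, or 65.3%, with a median of 0.12. DESeq2 called 0, with 10 under 0.05. The smallest p was at Znrd2, with 2.72, 1.64 and 1.49% in KO and 0.345, 0.383 and 0.775% in WT (edgeR adjusted p = 0.533). Next was Atf1, a CREB family transcription factor, with 2.22 ± 0.256% in KO and 0.135 ± 0.234% in WT. Its zeros in WT replicates 1 and 3 allow up to 2.48 and 1.84% if counts at its cytosines are independent. Thg1l, which adds a guanosine to histidine tRNA, had 3.48 ± 0.562% in KO and 0.353 ± 0.328% in WT. Its zero in WT replicate 3 allows up to 3.61% on the same terms. Cytosines of a window can share reads, so these limits may be wider. Mrpl20, of the mitochondrial ribosome, had 1.86 ± 0.184% in KO and 0.864 ± 0.153% in WT (SD, n = 3 each). Without WT replicate 3, whose level was the highest of the WT libraries in both, Ppp1r14b and Bax passed as higher in KO: Ppp1r14b had 3.86, 4.74 and 4.46% in KO and 3.06, 1.92 and 4.53% in WT.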

How the data were processed

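RNA bisulfite libraries of the long, rRNA-depleted fraction of 3 Dnmt2-/- and 3 wild-type stem cell samples were used, 1 file each. The deposited files list, per cytosine of a RefSeq mRNA reference, the coverage as a read count and the non-converted share as a fraction, per the file headers; BSMAP and mm9 are named in the submitters' processing notes, and the settings of that step were not stated there. No cytosine was listed under 3 reads. Non-converted counts were recovered as coverage times fraction, within 8e-10 of a whole number. Symbols were matched for 2226 of 2231 references.

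Pooled values are non-converted reads over all reads, both summed over cytosines. Windows were compared within libraries by an exact sign-flip permutation test, genotypes by an exact permutation test. Single references and cytosines were tested with edgeR 4.0.16 (quasi-likelihood on both read states, each library having its own term; 5 cytosines and 10 non-converted reads at least), adjusted by Benjamini-Hochberg over the whole table, threshold 0.05; DESeq2 1.42.0 was an alternative. The fits were tested on simulated data. Named genes are the 15 highest cytosines (1 per reference), the 10 largest higher and 5 largest lower calls, the 10 most covered references, the 5 smallest genotype p-values, Trdmt1, and up to 4 members of each of 6 lists; some items that this rule names are not reported here. The members and lists were chosen with earlier results of these data known.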

Additional observations from a re-analysis of the deposited data

How the results depend on the processing

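The pooled difference between the first 100 nt and later positions was -0.0891 points (exact p = 0.03125). It lost the threshold with equal weight per cytosine (-0.0125, exact p = 0.344), with later cytosines weighted to the same density (-0.0408, exact p = 0.0625) and without ribosomal protein, histone and pseudogene references (-0.0550, exact p = 0.0625). It changed sign with equal weight per reference (0.00785) and over the first 200 nt (0.0115). Leaving out 1 library gave -0.0784 to -0.103, lower in all that remained, and leaving out both libraries of replicate 3 gave -0.117; 5 and 4 libraries cannot go below an exact p of 0.0625 and 0.125, which is why these miss it. The other causes were not tested.

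DESeq2 called 17 references higher and 10 lower in place of 131 and 176. Relative to later positions the genotype difference in the window turned from 0.102 to -0.0425 points. Fisher's exact test called 27 cytosines between genotypes, 4 of them in the first 100 nt. Leaving out 1 library gave 0 to 1 cytosines (Rad23b, outside the window) and 0 to 2 references (Bax and Ppp1r14b), the highest in each case without WT replicate 3. The 14 cytosines called in KO became 34 at a minimum of 5%, 4 at 20% and 9 at 20 reads; the 4 called in WT became 14 and 2 at these percentages, and 5 to 9 without 1 library. Deviations of same-numbered libraries correlated with r of 0.014, 0.0054 and 0.044 over the 32311 cytosines, and with r of 0.126, 0.171 and 0.330 over the 461 of 5% or more, where each library correlated best with its own number. The labels tie the numbers to nothing, so no pairing was assumed; with a replicate block the pooled genotype difference of 0.102 points had an exact p of 0.5, and edgeR called 0 cytosines and 0 references.

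Among named references, H2ac20 turned to a log2 odds ratio of 0.13 without cytosines of 10% or more. Of those not called, leaving out 1 library gave log2 odds ratios of -0.0154 to 0.0459 for Impdh2, -0.0589 to 0.0521 for Hk2, -0.0628 to 0.173 for Gpi1 and -0.0685 to 0.0029 for Ndufb5. Coverage limits the outermost positions, with 236 cytosines at 1 to 10, and single cytosines with under 20 reads.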
